A study of Hordeum vulgare with 12 samples.

Results

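miR390 and miR393 are conserved plant microRNAs (miRNAs) of the auxin pathway. They were followed here in roots and shoots of barley seedlings (Hordeum vulgare, Golden Promise) that were 2 weeks old and had received excess nitrogen. Their members are the listed sequences whose miRNA names carry one of these family numbers more often than any other. The deposited tables list 3258 sequences, and 27 of them qualified, 13 for miR390 and 14 for miR393. The 4 groups of 3 libraries each were nitrogen-excess root and nitrogen-excess shoot, from plants given 280 mM NH4NO3, and control root and control shoot, from plants given 28 mM. Seedlings stood 2 to a pot in perlite under 16 h of light at 22 °C. The labels name 3 biological replicates. Nothing in the labels says whether plants were pooled for a library, so the p-values measure the spread between these libraries.

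miR390 binds the Argonaute protein AGO7 and cuts the noncoding TAS3 transcripts, which are then turned into trans-acting small interfering RNAs (tasiRNAs) that repress auxin response factors. miR393 targets the mRNAs of the F-box auxin receptors TIR1 and AFB, so both miRNAs act on how strongly a cell answers auxin. In Arabidopsis roots, miR393 and the receptor AFB3 belong to a module that responds to nitrate. miRNAs of 22 nt are also known as triggers of secondary small RNAs from their targets.

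Only 8 of the 27 sequences had a count in any of the 12 libraries, 4 in each family. The 19 others were at 0 throughout. The sequences that follow come from the authors' deposited tables. They are the 6 that carry nearly all counts, and the 21-nt miR393 listed at 0 that lies inside the longer forms. They are written 5′ to 3′ in DNA letters, with the seed (bases 2 to 8) in capitals.
ata-miR390-5p: aAGCTCAGgagggatagcgcc
bdi-miR390a-3p: cGCTATCTatcctgagctcca
gma-miR393h: tTCCAAAGggatcgcattgatc
osa-miR393b-5p: tCCAAAGGgatcgcattgatct
zma-miR393b-5p: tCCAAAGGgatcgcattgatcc
zma-miR393b-3p: aTCAATGCgatccttttggagg
bdi-miR393a: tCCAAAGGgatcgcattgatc

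A name stands for all miRNA names a sequence carries, and its prefix is a species of origin (ata, goat grass; bdi, Brachypodium; gma, soybean; osa, rice; zma, maize), not the source of the RNA. ata-miR390-5p carries 24 names. It held 5703 of the 5763 miR390 counts (99.0%), and the opposite arm of the hairpin, bdi-miR390a-3p, held 56. With the 2-base 3′ overhangs of a miRNA duplex, 16 of 19 positions of these arms form Watson-Crick pairs. The other detected members were ppt-miR390c-5p, which differs from ata-miR390-5p by A1G (base 1 counted at the 5′ end) and had 3 counts, and gma-miR390b-5p, with 1 count, from which ata-miR390-5p differs by A19G.

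miR393 was spread over 3 forms of 22 nt. Pooled over all libraries, gma-miR393h had 1000 of the 2005 family counts (49.9%), osa-miR393b-5p had 790 (39.4%) and zma-miR393b-5p had 208 (10.4%). In that order, the pooled shares by label were 19.8%, 38.7% and 40.1% in root and 58.4%, 39.6% and 1.92% in shoot. Nitrogen-excess root 3 alone gave 135 of the 208 counts. osa-miR393b-5p and zma-miR393b-5p share the seed CCAAAGG and differ at their final base, C22T from zma-miR393b-5p to osa-miR393b-5p. gma-miR393h starts 1 base earlier, which gives it the seed TCCAAAG. The 21-nt bdi-miR393a lies inside all 3 forms and had 0 counts. In all, 11 pairs of listed members are nested in this way, and every shorter sequence of them had 0 counts. The labels do not give the counting rule for reads of a shorter form, so the 22-nt entries may include 21-nt reads, and reads could be split between near-identical forms.

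A library held between 245176 and 2246495 counts in listed sequences, which is not its full sequencing depth. miR390 took 0.0030% to 0.0877% of a library's listed counts and miR393 took 0.00087% to 0.0477%. A family total as low as 10 counts (miR393 in control root 2) is thus behind some values. Levels are in CPM, counts brought to a common library total with one trimmed-mean (TMM) scaling over all 12 libraries, so sequences, families and tissues are on one scale. The TMM factors ran from 0.369 (control root 2) to 1.82 (nitrogen-excess shoot 1), so levels compared between tissues depend on them. By mean level on this scale, miR390 ranked 29 (318 CPM) and miR393 ranked 38 (101 CPM) of 1564 listed families, of which only 384 had a count in any library. Tissue labels were checked on 148 other miRNA sequences with a scale on which the shoot mean is 0 and the root mean is 1. On it, 1.10 was the position of the library labelled nitrogen-excess shoot 3, against -0.40 to 0.04 for the other 5 shoot libraries. A position of -0.20 was found for the library labelled control root 3, against 0.81 to 1.44 for the other 5 root libraries. Both thus stood with the opposite tissue, and results are given with and without them. Whether their labels were exchanged was not tested, and group values that include them hold only as far as the labels do. The library names fall into 3 series, with replicate 1 of each group in series 1, nitrogen-excess root 3 in series 3 and the other libraries in series 2.

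In shoot, miR390 was lower in each nitrogen-excess library than in each control library, but the difference did not pass the test across all families. The tasiRNA trigger ata-miR390-5p had 767, 207 and 43 counts in nitrogen-excess shoot replicates 1, 2 and 3, which are 188, 235 and 189 CPM. It had 963, 1055 and 1063 counts in control shoot, which are 629, 514 and 495 CPM. All 3 nitrogen-excess libraries were low and all 3 control libraries high, and the groups did not overlap. The library labelled nitrogen-excess shoot 3 stood with root on other miRNAs, and its 189 CPM lies within the root libraries (82.5 to 342 CPM). Nitrogen-excess shoot 1 and 2 also lay below every control shoot library. Of 148 sequences tested in shoot, 4.73% were lower without overlap, as were 7.02% of 57 families.

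The miR390 family averaged 205 ± 26.2 CPM in nitrogen-excess shoot and 549 ± 72.2 CPM in control shoot (SD, n = 3 each). The log2 fold change was -1.42 ± 0.65 (SE), with an unadjusted p of 0.0475 and an adjusted p of 0.219 in edgeR's quasi-likelihood test with Benjamini-Hochberg adjustment. The median family stood at 0.03. For ata-miR390-5p alone the log2 fold change was -1.42 ± 0.82 (adjusted p = 0.50). The authors' deposited table gives it a log2 fold change of -1.54 with an adjusted p of 0.209. The passenger arm bdi-miR390a-3p had 7, 0 and 0 counts in nitrogen-excess shoot and 3, 11 and 3 in control shoot, too few to be tested.

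The miR390 difference had the same direction within each naming series. In series 1 the family stood at 190 CPM in the nitrogen-excess shoot and 631 CPM in the control shoot, a log2 ratio of -1.73. In series 2, with 2 libraries a group, the means were 212 and 508 CPM, a log2 ratio of -1.26. Without the library labelled nitrogen-excess shoot 3 and the library labelled control root 3, the log2 fold change was -1.22 ± 0.56 (edgeR adjusted p = 0.454), in a fit that called 5.0% of 60 families.

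**Figure D1:**
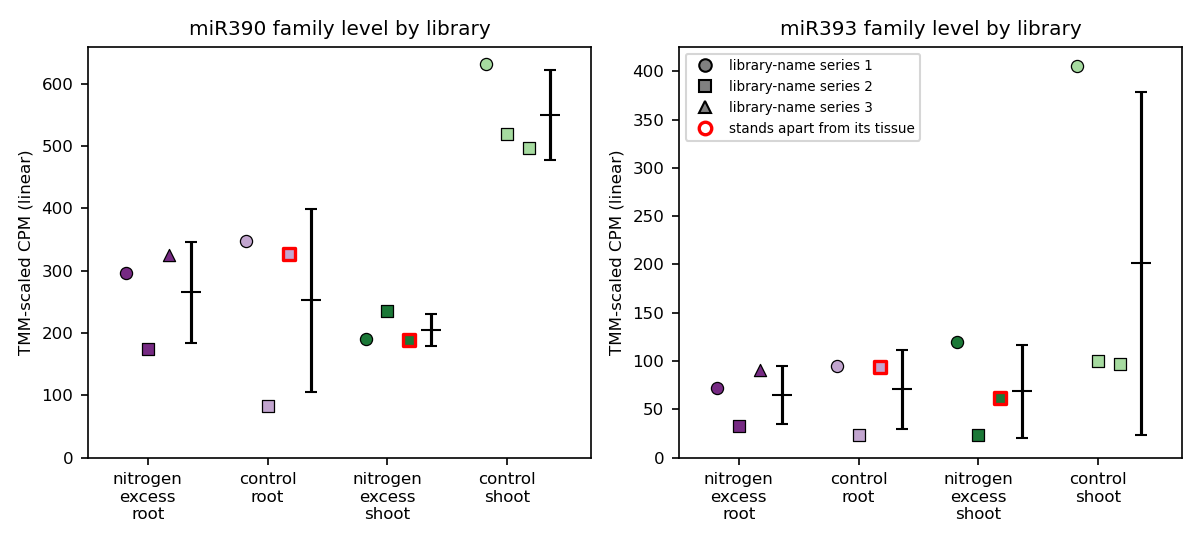
Level of the miR390 family (left) and the miR393 family (right) in TMM-scaled CPM on a linear axis, by group. Each point is a library, its shape is the library-name series, red outlines mark the libraries that stand apart from their tissue, and bars are mean ± SD (n = 3). The nitrogen-excess shoot points of miR390 (189 to 235 CPM) lie below all control shoot points (497 to 631 CPM), while the nitrogen-excess and control points of miR393 overlap within each tissue. The miR390 point at 189 CPM is the library labelled nitrogen-excess shoot 3, which stands with root on other miRNAs.

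miR393, the auxin-receptor miRNA, had a fold change of similar size in shoot, but its groups overlapped. The family had 491, 21 and 14 counts in nitrogen-excess shoot replicates 1, 2 and 3, which are 120, 23.8 and 61.7 CPM. It had 621, 205 and 209 counts in control shoot, which are 406, 99.8 and 97.4 CPM. The series 1 library is the highest of its group in both conditions. The fitted log2 fold change was -1.53 ± 0.82 (edgeR adjusted p = 0.277). Within series 1 the log2 ratio was -1.76, and within series 2 it was -1.21, with means of 42.7 CPM in nitrogen-excess shoot and 98.6 CPM in control shoot.

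Within series there was thus no overlap for miR393 either, although series 1 holds only 1 library a group. The size of the miR393 difference turned on single libraries. Without control shoot 1 the log2 fold change was -0.52 (edgeR adjusted p = 0.878), and without nitrogen-excess shoot 1 it was -2.46 (adjusted p = 0.169). Without the library labelled nitrogen-excess shoot 3 and the library labelled control root 3 it was -1.20 ± 0.84 (edgeR adjusted p = 0.666). gma-miR393h stood at -1.79 ± 0.97 and osa-miR393b-5p at -1.50 ± 0.87 (adjusted p = 0.474 and 0.50).

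Of the 8 detected members, 3 passed the filter on low counts in shoot, and none was called. edgeR called 0 of 148 sequences there (0% of those tested), with 15 at an unadjusted p below 0.05, and DESeq2 called 8 (5.41%). Of 57 families edgeR called 0 (0%), with 12 at an unadjusted p below 0.05, and DESeq2 called 4 (7.02%). zma-miR393b-5p was below the filter in shoot. It had 14, 0 and 4 counts in nitrogen-excess shoot and 8, 2 and 2 in control shoot.

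In root, the nitrogen-excess and control libraries overlapped for every tested member, and the fold changes of both families were near 0 with wide errors. Of the 146 sequences tested there, 2.74% were lower and 5.48% higher without overlap, as were 0% and 4.62% of 65 families. The miR390 family had 111, 113 and 775 counts in nitrogen-excess root, which are 296, 174 and 325 CPM. It had 224, 35 and 381 counts in control root, which are 347, 82.5 and 327 CPM. Control root 2 was the lowest root library for miR390. The log2 fold change was 0.07 ± 1.09 (edgeR adjusted p = 0.980), and 0.74 ± 1.14 (adjusted p = 0.974) without the library labelled control root 3 and the library labelled nitrogen-excess shoot 3, in a fit that called 1.45% of 69 families. The median family stood at -0.16.

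The miR393 family had 27, 21 and 216 counts in nitrogen-excess root, which are 72.1, 32.2 and 90.6 CPM. It had 61, 10 and 109 counts in control root, which are 94.5, 23.6 and 93.6 CPM. The groups overlap, and control root 2 and nitrogen-excess root 2 are low for both families. The log2 fold change was -0.12 ± 1.18 (edgeR adjusted p = 0.980). It was 0.60 ± 1.30 (adjusted p = 0.974) without the library labelled control root 3 and the library labelled nitrogen-excess shoot 3. Within series 1 the log2 ratio was -0.39 for miR393 and -0.23 for miR390. Within series 2 it was -0.86 and -0.24, with 1 nitrogen-excess library against 2 control libraries.

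Among the sequences, 4 members were tested in root and none was called, in a tissue where edgeR called 0 of 146 sequences (0%), with 1 at an unadjusted p below 0.05, and DESeq2 called 0. Over 65 root families edgeR and DESeq2 called 0 (0%), with 0 at an unadjusted p below 0.05 in each. osa-miR393b-5p stood at -0.97 ± 1.01, bdi-miR390a-3p at 0.68 ± 1.17, gma-miR393h at 0.29 ± 1.20 and ata-miR390-5p at 0.05 ± 0.91. The edgeR adjusted p was 0.951 for the first 3 and 0.977 for ata-miR390-5p. Errors of about 1 on the log2 scale leave room for a change as large as that measured in shoot.

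Whether the response to nitrogen excess differed between root and shoot was tested as an interaction over all 12 libraries. The root effect minus the shoot effect was 1.49 ± 0.99 for miR390 (edgeR adjusted p = 0.698) and 1.42 ± 1.30 for miR393 (adjusted p = 0.727), on the log2 scale. The median over 74 families was -0.66. edgeR called 0 of 74 families (0%; 4 at an unadjusted p below 0.05) and 0 of 177 sequences (0%; 8 below 0.05), and DESeq2 called 0 of each. Without the libraries labelled nitrogen-excess shoot 3 and control root 3, the values were 1.97 ± 1.09 and 1.80 ± 1.36 (adjusted p = 0.831 for both), and 0% of 78 families were called. Leaving out 1 library gave 1.32 to 2.10 for miR390, and for miR393 0.40 (without control shoot 1) to 2.52 (without nitrogen-excess shoot 1). A difference between the tissues in the response of miR390 or miR393 was not shown.

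**Figure D2:**
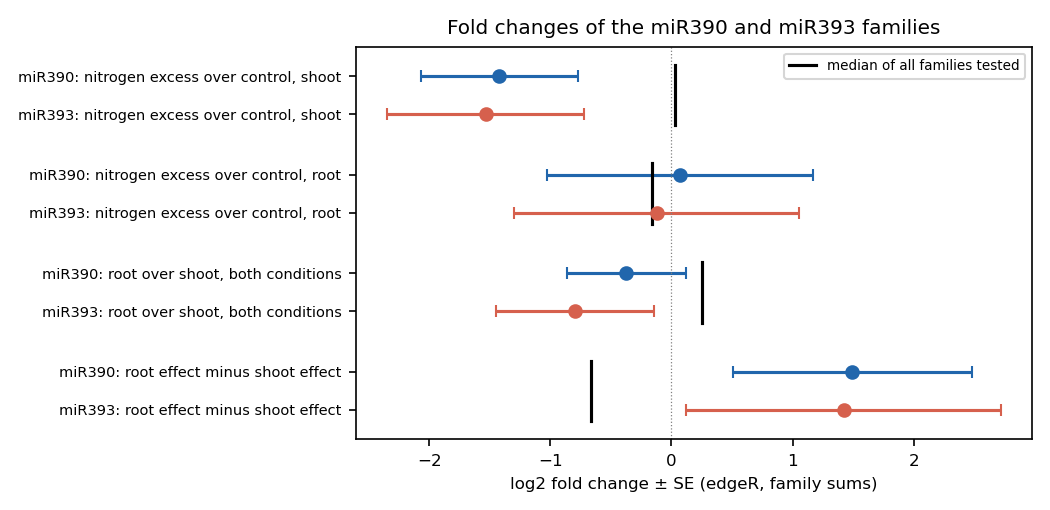
Log2 fold changes ± SE of the miR390 (blue) and miR393 (red) families from edgeR, with a black line at the median of all families tested in that comparison. Both families lie below the median in shoot (-1.42 and -1.53) and close to it in root (0.07 and -0.12), and no value passed the threshold.

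Each control root library had less of both families than each control shoot library, while in nitrogen-excess plants root and shoot overlapped. No difference of either family between the tissues passed the test. miR390 stood at 252 ± 147 CPM in control root and 549 ± 72.2 CPM in control shoot (SD, n = 3 each), and the log2 fold change was -1.12 ± 0.70 (edgeR adjusted p = 0.288). miR393 stood at 70.6 ± 40.7 CPM in control root and 201 ± 177 CPM in control shoot, at -1.50 ± 0.93 (adjusted p = 0.288). Of the 74 families, 4.05% were lower in control root without overlap and 0% were called. For miR393 the margin was small, with 94.5 CPM in the highest control root library and 97.4 CPM in the lowest control shoot library. Among sequences, ata-miR390-5p and gma-miR393h were lower without overlap, as were 3.95% of 177, and 0% were called. Without the libraries labelled control root 3 and nitrogen-excess shoot 3, the families stood at -1.64 ± 0.79 and -1.88 ± 1.01 (adjusted p = 0.112 and 0.153), where 37.2% of 78 families were called.

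In nitrogen-excess plants the miR390 family averaged 265 ± 80.5 CPM in root and 205 ± 26.2 CPM in shoot, a log2 fold change of 0.37 ± 0.70 (edgeR adjusted p = 0.910). miR393 averaged 65.0 ± 29.8 CPM in root and 68.6 ± 48.6 CPM in shoot, at -0.08 ± 0.92 (adjusted p = 0.993). In this contrast 9.46% of families were lower and 8.11% higher without overlap, against 5.08% and 7.34% of sequences, and 0% of either were called. Without the 2 libraries miR390 stood at 0.33 and miR393 at -0.09 (adjusted p = 0.823 and 0.927), where 32.1% of 78 families were called. Over both conditions, root minus shoot was -0.37 ± 0.49 for miR390 and -0.79 ± 0.65 for miR393 (adjusted p = 0.667 and 0.418), beside a family median of 0.25. Leaving out 1 library moved miR390 between -0.94 (without the library labelled control root 3) and -0.13 (without control root 2), and miR393 between -1.34 (without nitrogen-excess shoot 2) and -0.29 (without control shoot 1). Here edgeR called 14.9% of 74 families, 11 higher and 0 lower in root, or 13 higher and 2 lower with DESeq2's size factors. Without the libraries labelled nitrogen-excess shoot 3 and control root 3 these became -0.65 ± 0.53 and -0.99 ± 0.67 (adjusted p = 0.383 and 0.271), where 46.2% of 78 families were called. By mean TMM-scaled CPM, the order of miR390 was control shoot, nitrogen-excess root, control root and nitrogen-excess shoot. The last 3 do not differ beyond their spread. For miR393 all 4 groups overlap except control root and nitrogen-excess root with control shoot, which lies above both.

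Within miR393 the mix of forms in a library does not depend on scaling. In 4 of the 6 root libraries zma-miR393b-5p had a larger share than in every shoot library, though no test of the shares passed adjustment. This form, which ends in C, took 7.41%, 47.6% and 62.5% of the family counts in nitrogen-excess root 1, 2 and 3, and 39.3%, 60.0% and 0.917% in control root. It took 2.85%, 0% and 28.6% in nitrogen-excess shoot, and 1.29%, 0.976% and 0.957% in control shoot. The root library that is low is the one labelled control root 3, and the shoot library that is high is the one labelled nitrogen-excess shoot 3. These are the libraries that other miRNAs place with the opposite tissue. Nitrogen-excess root 1, the lowest of the other root libraries in this share, also has the lowest tissue position among them, 0.81.

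The counts behind some of these shares are small. The 0% in nitrogen-excess shoot 2 is 0 of 21 counts (95% Wilson interval 0% to 15.5%). The 28.6% in the library labelled nitrogen-excess shoot 3 is 4 of 14 counts (11.7% to 54.6%). The 0.917% in the library labelled control root 3 is 1 of 109 counts (0.162% to 5.01%), and the 62.5% in nitrogen-excess root 3 is 135 of 216 (55.9% to 68.7%). Such intervals cover counting error alone and treat each read as a separate molecule. PCR reads lacking molecular identifiers need not be separate molecules, so the intervals may be too narrow.

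By the labels, zma-miR393b-5p averaged 36.3 ± 26.4% of miR393 in root and 5.77 ± 11.2% in shoot (SD, n = 6 each), a difference of 30.5 percentage points. A two-sided exact permutation test gave p = 0.0260, and 0.271 after adjustment over the 15 share and ratio tests. Without the libraries labelled control root 3 and nitrogen-excess shoot 3, the 5 root libraries (7.41% to 62.5%) lay above the 5 shoot libraries (0% to 2.85%), a difference of 42.2 points with an exact permutation p of 0.00794, and 0.119 adjusted. That p is the smallest 5 against 5 libraries can give. The libraries left out are also those whose share goes against their label, so leaving them out favours a full separation. The test of this share was added after its values were seen, so its p-values are a description only. Within series 1 the shares were 7.41% and 39.3% in root against 2.85% and 1.29% in shoot. Within series 2 the groups overlapped through those 2 libraries.

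**Figure D3:**
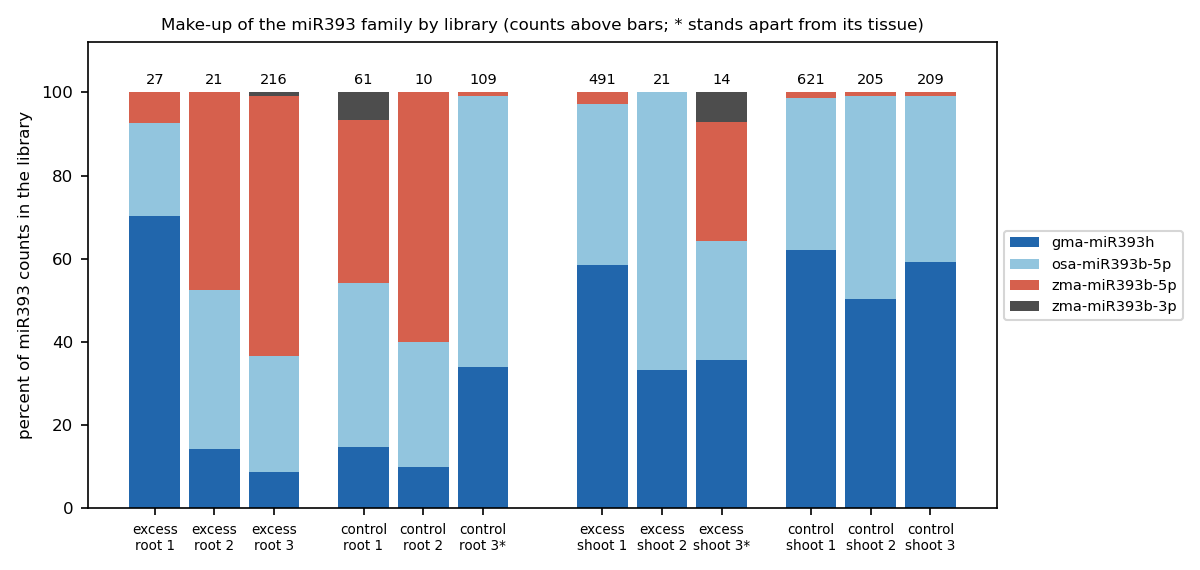
Share of each detected miR393 sequence in the family counts of a library, stacked to 100%, with the family count above each bar and an asterisk on the libraries that stand apart from their tissue. zma-miR393b-5p (red) takes 39.3% to 62.5% in 4 root libraries, 7.41% in nitrogen-excess root 1 and 0.917% in the library labelled control root 3.

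The opposite arm, zma-miR393b-3p, was rare. Its 7 counts were 4 in control root 1, 2 in nitrogen-excess root 3 and 1 in the library labelled nitrogen-excess shoot 3. In each of these 3 libraries zma-miR393b-5p was at 28.6% or more of the family. With 2-base 3′ overhangs, 19 of 20 positions pair by Watson-Crick rules with zma-miR393b-5p, and as many with osa-miR393b-5p, because base 22 lies in the overhang. The pairing therefore does not tell which 5p form shares its hairpin.

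The levels of the 3 forms had fold changes of unlike sign between tissues. zma-miR393b-5p averaged 21.6 ± 21.2 CPM in root and 4.70 ± 6.62 CPM in shoot (SD, n = 6 each), and its log2 fold change was 2.56 ± 1.04. gma-miR393h averaged 18.6 ± 19.0 CPM in root and 76.7 ± 89.1 CPM in shoot, at -1.81 ± 0.83. osa-miR393b-5p, which has the seed of zma-miR393b-5p, averaged 26.5 ± 20.0 CPM in root and 52.6 ± 49.0 CPM in shoot, at -0.87 ± 0.65. The edgeR adjusted p was 0.133, 0.169 and 0.444, so none of the 3 passed, beside a median sequence at 0.20. ata-miR390-5p stood at -0.40 ± 0.52 and bdi-miR390a-3p at 1.49 ± 0.86 (adjusted p = 0.692 and 0.290).

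Of 5 members tested between root and shoot, 0 were called, where edgeR called 8.47% of 177 sequences (15 higher, 0 lower in root). DESeq2 called 22.0% of them (30 higher, 9 lower), among them zma-miR393b-5p (2.53, adjusted p = 0.0440). Without the libraries labelled nitrogen-excess shoot 3 and control root 3, edgeR called 32.8% of 183 sequences and 2 of the 5 members. zma-miR393b-5p was higher in root (3.54 ± 0.92, adjusted p = 0.00803) and gma-miR393h was lower (-2.44 ± 0.88, adjusted p = 0.0476). With just 1 of them left out, zma-miR393b-5p passed without the library labelled nitrogen-excess shoot 3 (3.25, adjusted p = 0.0397) and without the library labelled control root 3 (2.64, adjusted p = 0.0387), and gma-miR393h passed without the library labelled control root 3 (-2.80, adjusted p = 0.0277). In the fit without both, osa-miR393b-5p stood at -1.36 ± 0.64 (adjusted p = 0.123). The libraries left out also go against their labels in the share of zma-miR393b-5p, which favours these calls. With equal totals, the replicate block or the naming series as a term, edgeR called 0 sequences, so zma-miR393b-5p did not pass. The same held without nitrogen-excess shoot 1, nitrogen-excess shoot 2, any single control shoot library or control root 2. The counts of zma-miR393b-5p reached 10 in 3 root libraries and in 1 shoot library, but the filter scales counts by library total. On that scale it passed in nitrogen-excess root 3 (135 of 1590461 listed counts) and control root 1 (24 of 1633631). It also passed in the library labelled nitrogen-excess shoot 3, with 4 of 245176, and in no other library. It thus entered the fit of all libraries only through libraries in which it was high.

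**Figure D4:**
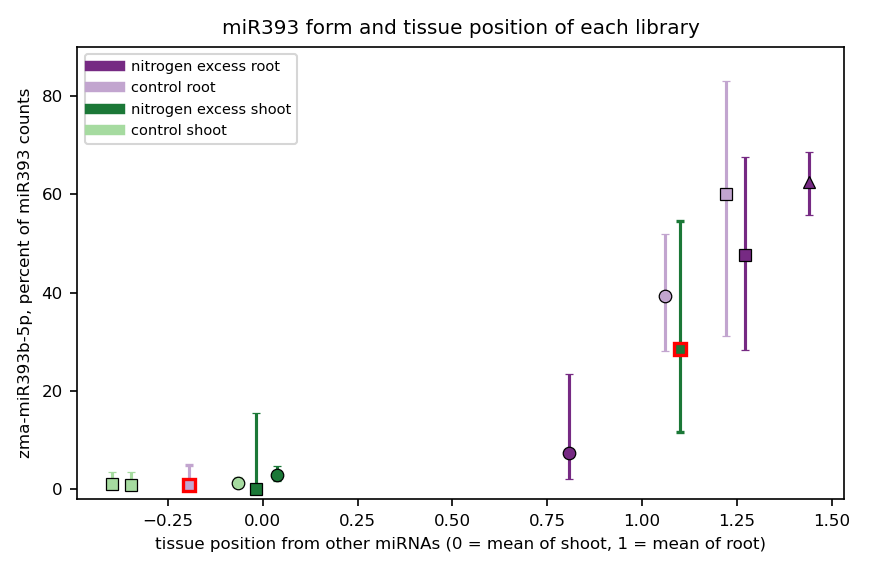
Share of zma-miR393b-5p in the miR393 counts of a library (percent, with 95% Wilson intervals) against the library's tissue position from other miRNAs (0 is the mean of shoot libraries, 1 that of root libraries). Point shapes are the library-name series (circle 1, square 2, triangle 3), and red outlines mark the libraries labelled nitrogen-excess shoot 3 (1.10, 28.6%) and control root 3 (-0.20, 0.917%), which lie with the opposite tissue on both axes.

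The other 5p forms made up the rest. gma-miR393h, with the shifted seed, took 25.4 ± 23.9% of miR393 in root and 49.9 ± 12.6% in shoot (SD, n = 6 each), with an exact permutation p of 0.0498 and an adjusted p of 0.271. The difference was -29.1 points without the libraries labelled control root 3 and nitrogen-excess shoot 3 (exact permutation p = 0.0635, adjusted p = 0.318). Nitrogen-excess root 1 was an exception among root libraries, at 70.4% (19 of 27 counts, Wilson interval 51.5% to 84.1%), above every shoot library. osa-miR393b-5p took 37.1 ± 15.2% in root and 43.2 ± 13.2% in shoot (exact permutation p = 0.472, adjusted p = 0.786). With those 2 libraries left out, osa-miR393b-5p took 31.5 ± 7.20% in root and 46.1 ± 12.4% in shoot (SD, n = 5 each), a difference of -14.6 points, against -6.07 in all 12 (exact permutation p = 0.0476, adjusted p = 0.318). In shoot gma-miR393h took 42.5 ± 13.9% in nitrogen excess and 57.2 ± 6.22% in control (exact permutation p = 0.200 and 0.50 adjusted, where 3 against 3 libraries cannot give a p below 0.1). The lower mean rests on 7 of 21 counts in nitrogen-excess shoot 2 and 5 of 14 in the library labelled nitrogen-excess shoot 3. Pooled over libraries, the shares were 56.8% (299 of 526 counts) and 59.2% (613 of 1035).

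miR390 was almost a single sequence in both tissues. ata-miR390-5p took 96.4% to 100% of the miR390 counts in each library. Its share averaged 98.3 ± 1.26% in root and 99.5 ± 0.51% in shoot (SD, n = 6 each; exact permutation p = 0.0541, adjusted p = 0.271).

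The ratio of miR390 to miR393 within a library is likewise free of scaling. miR390 counts were 1.58, 9.65 and 3.00 times those of miR393 in nitrogen-excess shoot 1, 2 and 3, and 1.56, 5.19 and 5.09 times in control shoot. They were 4.05, 5.28 and 3.58 times in nitrogen-excess root and 3.65, 3.38 and 3.48 times in control root. The root ratios lay close together, while the shoot ratios were lowest in both series 1 libraries, whatever the treatment. On the log2 scale the ratio was 1.84 ± 1.32 in nitrogen-excess shoot and 1.79 ± 1.00 in control shoot (exact permutation p = 0.900). It was 2.09 ± 0.29 in nitrogen-excess root and 1.81 ± 0.06 in control root (exact permutation p = 0.200), and 1.95 ± 0.24 over all root and 1.81 ± 1.05 over all shoot libraries (exact permutation p = 0.797; SD throughout, with n = 3 per group and n = 6 per tissue). The adjusted p-values were 0.900, 0.50 and 0.900. The differences were 0.18 in shoot, 0.27 in root and 0.12 between tissues without the libraries labelled nitrogen-excess shoot 3 and control root 3.

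**Figure D5:**
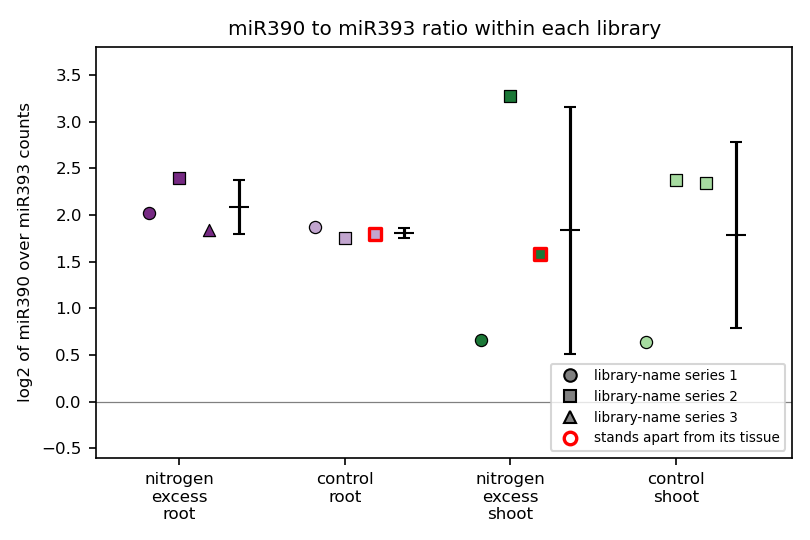
Log2 ratio of miR390 to miR393 counts within each library, by group, with shapes for the library-name series, red outlines for libraries that stand apart from their tissue, and mean ± SD (n = 3). Both series 1 shoot libraries (circles) lie at 0.66 and 0.64, below the other shoot libraries, which lie between 1.58 and 3.27.

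Across the 12 libraries, the Pearson r between the log2(CPM + 1) levels of the 2 families was 0.76. Like all values of this kind here, it is a description over libraries that share their scaling and naming series. Among 148 other sequences with a mean of at least 10 CPM, the pattern of miR390 was most like that of bdi-miR164a-3p (r = 0.82), osa-miR156l-5p (0.71), ata-miR394-5p (0.66), bdi-miR159b-5p.3 (0.63) and ata-miR171c-5p (0.59), where the median r was -0.05. The pattern of miR393 was most like that of ata-miR164a-5p (0.91), ata-miR394-5p (0.84), ath-miR5657 (0.82), ata-miR172b-3p (0.82) and bdi-miR164a-3p (0.73), where the median r was -0.07.

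The other auxin miRNAs listed for comparison were miR160 and miR167, which target auxin response factors, and miR164, which targets NAC transcription factors of auxin-controlled root and organ growth. In shoot 7 of their 15 tested sequences had positive and 8 negative fold changes, none was called, and the median log2 fold change was -0.03 beside 0.09 for all 148. The most abundant member of each family there was ata-miR167b-5p (-0.78 ± 0.69), tae-miR160 (-0.61 ± 0.84) and bdi-miR164a-3p (-1.27 ± 0.80). In root 4 of 13 were positive, 9 negative and none called, with a median of -0.18 beside -0.29 for all 146. Between root and shoot 1 of 17 was called, ata-miR167a-3p, by its name a 3p-arm sequence, higher in root at 3.02 ± 0.87 (edgeR adjusted p = 0.0412). Of all 177, 8.47% were called, and the list median was 0.04 beside 0.20. The most abundant members were not called there. They stood at -0.22 ± 0.48 (ata-miR167b-5p, the 5p arm), 0.04 ± 0.57 (tae-miR160) and -0.71 ± 0.60 (bdi-miR164a-3p). The call of ata-miR167a-3p was lost with the replicate block (adjusted p = 0.0912), with the naming series as a term (0.0840) and with equal totals (0.160). It held without the libraries labelled nitrogen-excess shoot 3 and control root 3 (4.12 ± 0.55, adjusted p = 0.000151).

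Other known triggers of phased small RNAs had few counts. miR2118, which acts in grass reproductive tissue, had 0 counts over its 22 listed sequences, miR2275 had 38 counts and miR482 had 2. ata-miR9863a-3p, of a family that targets immune receptor genes in barley, had 145 counts and stood at -0.32 ± 0.91 in nitrogen-excess against control shoot (edgeR adjusted p = 0.975).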

How the data were processed

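Small RNA libraries were made with the Illumina TruSeq kit, per the labels' protocols. The authors' deposited tables, one per tissue, give whole-number counts per listed sequence. The deposited signal columns are those counts divided by one factor per library. The log2 fold change and p-value columns are the authors' comparison, per the file headers, and the submitters' processing notes name DESeq2. Trimming, alignment and counting rules are not stated in the labels.

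Counts of both tables were joined by sequence. TMM factors were computed once over 12 libraries. Each tissue was fitted alone, and tissue contrasts and the interaction in one fit of 4 group means, with edgeR 4.0.16 (R 4.3.3) after filterByExpr (minimum count 10, minimum total 15) and Benjamini-Hochberg adjustment at 0.05. SEs come from the fold change and F statistic. Family sums used the factors of the sequences. 2 sequences whose names tie between families and 1 entry without a miRNA number stayed out of the sums. DESeq2 1.42.0 and limma 3.58.1 were alternatives. Shares and the log2 ratio (pseudocount 0.5) were compared by exact permutation over libraries (scipy 1.17.1), adjusted over 15 tests. Tests of the shares of osa-miR393b-5p and zma-miR393b-5p were added after their values were seen. The edgeR code was checked on simulated counts. No library pair held identical counts.

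Families, lists and tests were chosen with earlier results of these data known. All detected members are reported, the 3 most abundant per family in every library where the results turn on them, with the 5 sequences of most similar pattern by Pearson r.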

Additional observations from a re-analysis of the deposited data

How the results depend on the processing

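Both families kept a negative change in nitrogen-excess shoot, a negative root-minus-shoot difference and a positive interaction under every alternative run, and none was called. In shoot, leaving out 1 library gave -1.64 to -1.22 for miR390 and -2.46 to -0.52 for miR393. In root the sign was not stable. miR390 was at -0.080 with DESeq2, -0.24 with the naming series as a term, -0.52 in series 2 alone and -0.10 to 0.64 without 1 library, and miR393 at 0.030 with limma-voom, 0.60 without the 2 libraries that stand apart and -0.44 to 0.54 without 1 library. ata-miR390-5p in root was at -0.25 with the series term, -0.52 in series 2 alone and -0.12 to 0.62 without 1 library. gma-miR393h in root was at -0.18 with equal totals, -0.21 with limma-voom, -0.093 with the series term, -2.14 in series 2 alone and -1.24 to 1.38 without 1 library, and osa-miR393b-5p at 0.14 without the 2 libraries and -1.32 to 0.012 without 1. The cause was not tested.

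Called sequences in shoot, 0 in the reported fit, were 12 without a filter, 4 with at least 20 counts in at least 3 libraries, 8 with DESeq2, 1 with limma-voom, 3 with the replicate block, 1 with the series term and 0 to 3 without 1 library. Called shoot families, 0 as reported, were 8 without a filter, 4 with DESeq2, 3 with the replicate block, 2 with the series term, 3 without the 2 libraries and 0 to 3 without 1. Called root families were 1 without the 2 libraries and 0 to 1 without 1. Called sequences between tissues, 15 (all higher in root), were 0 with equal totals, 39 without a filter, 39 with DESeq2 (30 higher, 9 lower), 0 with the replicate block, 0 with the series term, 60 without the 2 libraries (42 higher, 18 lower) and 0 to 54 without 1. Called families, 11 (all higher), were 4 with equal totals, 13 higher and 2 lower with DESeq2 size factors, 24 without a filter, 7 with the stricter filter, 24 with DESeq2, 0 with the replicate block, 0 with the series term, 36 without the 2 libraries and 0 to 34 without 1. Equal totals moved the median sequence between tissues to -0.48, against 0.20. In the interaction 1 sequence was called without a filter.

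For pairing by replicate number, the deviations of same-numbered nitrogen-excess and control libraries correlated at 0.50, 0.11 and 0.05 in shoot and 0.11, 0.49 and -0.29 in root, and those of control root and shoot at 0.52, -0.02 and 0.10. Those of nitrogen-excess root and shoot correlated at 0.53, 0.18 and 0.40, and in that contrast 0 sequences and 0 families were called with the replicate block, as without it. With the replicate block miR390 and miR393 in shoot stood at -1.42 and -1.51 (edgeR adjusted p = 0.265 and 0.255). The shoot difference in the log2 ratio ranged from -0.66 to 0.64, and that between tissues from -0.10 to 0.43, without 1 library. The shoot difference in the share of ata-miR390-5p was -0.039 points without the 2 libraries and -0.091 to 0.54 without 1, that of osa-miR393b-5p -8.05 to 11.0. In root, that of gma-miR393h ranged from -8.03 to 22.8, and that of zma-miR393b-5p was -10.5 without the 2 libraries and -10.5 to 21.6 without 1. Depth limits miR393 most, with 10 to 27 counts in 5 libraries.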
